A study of Saccharomyces cerevisiae with 3 samples.

Results

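The yeast cell wall enzymes that cut and rejoin glucan and chitin chains were followed here in Saccharomyces cerevisiae, through the genes of 3 enzyme families and 1 exo-glucanase. The genes were chosen by name: CRH1, CRR1 and UTR2 of the CRH family, GAS1, GAS3 and GAS5 of the GAS family, the wall glucanase genes BGL2, SCW4 and SCW10, and EXG1. Of these 10 genes, 9 had a row in the table of 6174 genes, and GAS1 was not analysed here. The study compared cells given 15 ng/ml caspofungin for 2 hours with untreated cells of the same split culture, both of the strain labelled WSC1extMID2cyt in the BY4741 background and both grown in rich medium (YEPD) at 24 °C. Caspofungin is an echinocandin drug that inhibits the synthase of beta-1,3-glucan, the main load-bearing polymer of the wall. In the strain's name, WSC1 and MID2 are genes that encode wall stress sensors of the cell surface. Every RNA carried this genotype, so nothing here sets it against BY4741 itself. RNA of treated and untreated cells was hybridised together on 2-colour arrays, and 3 arrays, numbered 1, 2 and 4 in the labels, were analysed.

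Glucan leaves its synthase as linear chains, and enzymes outside the cell then branch it, lengthen it and tie it to the other wall polymers. CRH proteins are transglycosylases that join chitin to glucan. GAS proteins are anchored at the cell surface, and those of known activity lengthen beta-1,3-glucan chains by moving pieces of one chain onto another. Bgl2 and its relatives Scw4 and Scw10 are glucanase-like proteins of the wall, and Exg1 is the major exo-glucanase, which trims glucan from chain ends. Genes of wall remodelling enzymes, CRH1 among them, are known in budding yeast as part of the transcriptional response to wall damage that runs through the MAP kinase Slt2.

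Each value is the log ratio of the 2 channels of one array, read here as log2 although the base is not given in the sources used here. Treated RNA was labelled with Cy3 on array 1 and with Cy5 on arrays 2 and 4. Which channel stands on top of the deposited ratio is also not given, so values are said to lie on the positive or the negative side, and either side may be the higher level with caspofungin. Across genes the arrays correlated with r = 0.58 for arrays 1 and 2 (1863 genes), 0.53 for arrays 2 and 4 (590 genes) and 0.07 for arrays 1 and 4 (616 genes). With no negative correlation, array 1 was taken as already turned to the direction of the others. If it was not, treatment would carry opposite signs on arrays 1 and 2, and a ratio of one sign on both would not be a difference between treated and untreated cells. Array 1 held values for 2520 genes, array 2 for 1924 and array 4 for 741, and their medians were -0.20, -0.22 and 0.09. Among genes that mark mating type a, the type of BY4741, STE2, BAR1 and MFA2 had values and 3 others had none. The 4 marker genes of the alpha type had no value, as was the case for 3473 of the 6174 genes.

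Both measured genes of the CRH family lay far out on the positive side. As deposited, the GAS genes and EXG1 lay near 0 or on the negative side. The BGL2 group was seen on array 4 alone. Values on 2 arrays were present for 5 genes (CRH1, CRR1, GAS3, GAS5 and EXG1), in each case arrays 1 and 2, which carry opposite dye orientations, so that a dye effect of one size cancels in their mean if array 1 was turned. BGL2 and SCW4 had a value on array 4 only. UTR2 and SCW10 had a row but no value on any array. None of the 9 genes with a row was measured on all 3 arrays. The text gives 2 cultures, each hybridised in both dye orientations, so arrays 1 and 2 may carry RNA of one culture. In that case the spread, the intervals and the p-values below cover technical error only, and the p-values are too small.

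**Figure D1:**
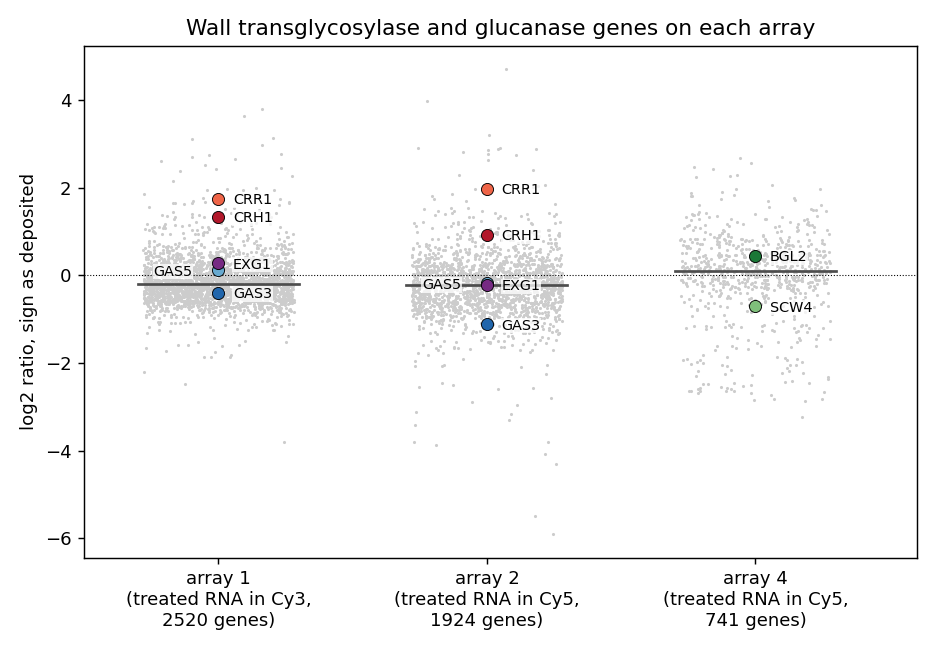
Log2 ratio (vertical axis, sign as deposited) of each gene on arrays 1, 2 and 4. Coloured points are the 7 wall transglycosylase and glucanase genes with a value, grey points all genes with a value on that array, and the bars the array medians of -0.20, -0.22 and 0.09. CRH1 and CRR1 sit near the top of the cloud on arrays 1 and 2, while EXG1 and GAS5 sit within its body on both.

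CRR1 (YLR213C), a CRH homologue known for its part in building the spore wall, had the largest ratios of the group. Its log2 ratio was 1.75 on array 1 and 1.97 on array 2, sizes of 3.36-fold and 3.92-fold. Both arrays placed it at the far positive end of their genes, where 99.0% of genes on array 1 and 99.1% on array 2 had a lower ratio. The mean was 1.86 ± 0.16 (SD, n = 2 arrays), with a 95% interval from limma's moderated fit of 1.31 to 2.41. The gap of 0.22 between its arrays was smaller than the median gap of 0.32 between arrays 1 and 2 over 1863 genes. CRR1 was the only one of the 5 genes to pass the limma test of all genes that had 2 or more array values (adjusted p = 0.013), in which 48 of 1899 genes passed, or 2.53%. It ranked 17 of 1899 by p. It was also the only one beyond 2-fold on one side of both arrays, a size reached by 3.13% of the 1278 genes measured, like it, on arrays 1 and 2 alone.

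CRH1 (YGR189C) encodes a transglycosylase of vegetative cells that links chitin to glucan, and it came next. The log2 ratio of CRH1 was 1.34 on array 1 and 0.92 on array 2, sizes of 2.53-fold and 1.89-fold. Here too both arrays lay on the positive side, above 97.9% and 95.5% of the genes measured on each. The gap of 0.42 between these values was wider than the median gap of 0.32 over 1863 genes. CRH1 averaged 1.13 ± 0.30 (SD, n = 2 arrays), with a 95% interval of 0.55 to 1.71. It missed the threshold (limma adjusted p = 0.074), and its rank was 68 of 1899. The call depended on the setting. CRH1 passed with each array centred and scaled to one spread (limma adjusted p = 0.024, with 108 of 1899 genes called, 5.69%) and when arrays 1 and 2 were fitted alone (limma adjusted p = 0.0050, with 209 of 1863 genes called, 11.2%). UTR2 (YEL040W), a relative of CRR1 and CRH1 and the gene of another chitin to glucan transglycosylase, had no value, so the family could not be described as a whole.

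Set against each other, CRR1 was above CRH1 on both arrays, by 0.41 on array 1 and by 1.05 on array 2. The ranges of these genes over the arrays did not overlap. No other gene of the group reached 1.5-fold on one side of both arrays, a size passed by 11.3% of the 1278 genes measured on that pair alone. CRH1 in turn was above EXG1, the next in order, by 1.06 and 1.14. With 2 arrays these differences were not tested. They rest on the direction taken for array 1. With that array turned in sign, a setting added after the data were seen, the means were 0.11 for CRR1, -0.15 for GAS5, -0.21 for CRH1, -0.25 for EXG1 and -0.36 for GAS3, so that the order changed, and none of the 5 genes passed (limma adjusted p = 0.9986 each, with 0 of 1899 genes called and 31 at an unadjusted p under 0.05).

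**Figure D2:**
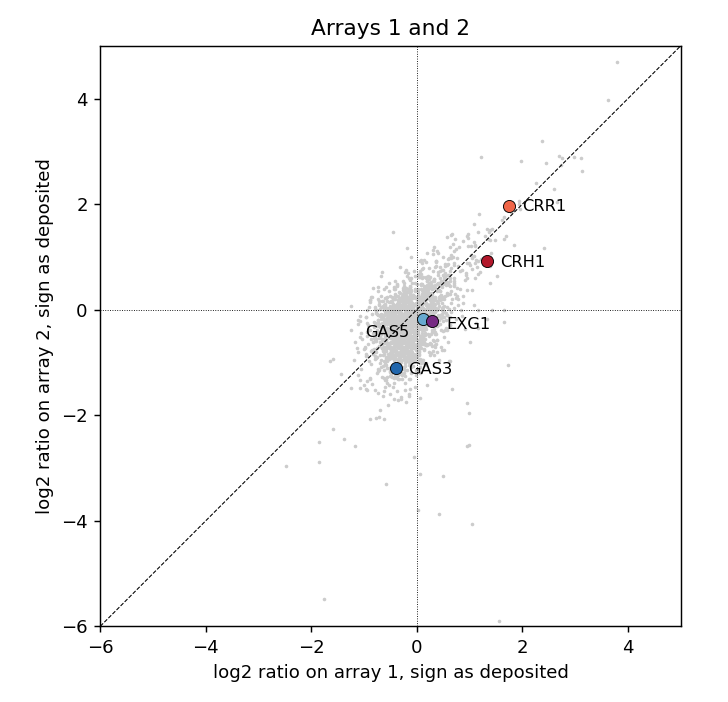
Log2 ratio on array 1 (horizontal axis) against array 2 (vertical axis), signs as deposited, for 1863 genes in grey, with the 5 wall enzyme genes measured on both arrays in colour. The dashed line marks equal ratios. CRR1 lies just above it, CRH1, EXG1, GAS5 and GAS3 lie below it, and CRR1 and CRH1 stand apart from the others towards the positive corner.

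The GAS genes did not share one pattern. GAS3 (YMR215W), a gene of a putative glucanosyltransferase of the family, lay on the negative side with a log2 ratio of -0.40 on array 1 and -1.11 on array 2. It sat in the lower part of both arrays, with 30.6% of genes below it on array 1 and only 6.39% on array 2. Its mean was -0.75 ± 0.51 (SD, n = 2 arrays), and the 95% interval ran from -1.39 to -0.12. The gap of 0.72 between arrays was wider than the 75th percentile of 0.56 over all genes on both arrays. GAS3 did not pass (limma adjusted p = 0.17).

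GAS5 (YOL030W), which encodes a beta-1,3-glucanosyltransferase active in growing cells, had a log2 ratio of 0.12 on array 1 and -0.18 on array 2. These lie on both sides of 0, and the mean of -0.03 ± 0.21 (SD, n = 2 arrays) was close to no difference. The 95% interval of -0.60 to 0.53 leaves room for a difference of up to 1.44-fold on the positive side and 1.51-fold on the negative side. GAS5 did not pass (limma adjusted p = 0.94). It lay above GAS3 on both arrays, by 0.51 and 0.93, without overlap.

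EXG1 (YLR300W), the gene of the main exo-glucanase of the wall, had values close to those of GAS5. Its log2 ratio was 0.28 on array 1 and -0.22 on array 2. The mean was 0.03 ± 0.35 (SD, n = 2 arrays), with a 95% interval of -0.56 to 0.62 (limma adjusted p = 0.95). EXG1 and GAS5 were the only neighbours in the order of the 5 genes whose ranges overlapped, EXG1 being 0.16 above GAS5 on array 1 and 0.04 below it on array 2.

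The signs of GAS5 and EXG1 depend on where 0 is set. Among the genes of each array, GAS5 lay above 76.2% on array 1 and 53.9% on array 2, and EXG1 above 83.7% and 50.5%. The medians of all genes on arrays 1 and 2 were negative, so centring each array on its median moved every one of the 5 means by 0.21. Centred, GAS5 averaged 0.18 and EXG1 0.24, and both genes lay on the positive side of both arrays, EXG1 on array 2 by only 0.0034. CRR1 then averaged 2.07, CRH1 1.34 and GAS3 -0.54. The order of the 5 genes was the same before and after, since all of them were measured on the same arrays. As deposited, 3 of the 5 genes had one sign on both arrays. Of the 1278 genes with values on arrays 1 and 2 alone, 72.7% did. Centred, it was 5 of the 5 genes, and 65.9% of the 1278. The median of the 5 means was 0.03, against -0.19 over the 1899 genes with at least 2 values.

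The glucanase genes of the wall gave one reading each, both from array 4. BGL2 (YGR282C), the gene of an abundant wall glucanase with transglycosylase activity, had a log2 ratio of 0.44, above 70.6% of the 741 genes of that array. SCW4 (YGR279C), whose product resembles Bgl2, had -0.71 there, with 16.1% of genes below it. The pair lay on opposite sides of the array's median, BGL2 0.35 above it and SCW4 0.80 below it. These genes lie close together in the reference annotation, with 2 protein-coding genes (PXR1 and YOR1) between them. PXR1 and YOR1 had no value on any array. With 1 array each, no error can be given and no test was made. SCW10 (YMR305C), the closest relative of SCW4, had no value; in the annotation it is separated from GAS1 by FKS3 alone, which had none either. Probe sequences were not used here, so whether related genes share signal is unknown.

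Other enzymes of the same kind, from a list of 18 wall glycosidase and transferase genes, also spread to both sides. Of these, 8 had values on at least 2 arrays, with a median of 0.24. By sign, 4 were positive and 3 negative on every array measured, where 18.5% and 45.9% of all 1899 genes were. The 1899 include 585 genes that had to agree on 3 arrays, which makes one side harder to keep. Of the 1278 genes measured on arrays 1 and 2 alone, as all of the 8 but TOS1 were, 72.7% had one sign on both. In all, 0 of the 8 passed the limma test over the 1899 genes as deposited. At an unadjusted p under 0.05 there were 5, beside 453 of all 1899. SCW11, a glucanase gene of daughter cell separation, was the most negative, with -1.07 on array 1 and -1.49 on array 2 and a mean of -1.28 ± 0.30 (SD, n = 2 arrays, limma adjusted p = 0.051). Its mean lay on the side opposite to that of CRH1. Like CRH1, SCW11 passed with each array centred and scaled (limma adjusted p = 0.031, with 108 of 1899 genes called, 5.69%). It also passed when arrays 1 and 2, its only arrays, were fitted alone (limma adjusted p = 0.0019, with 209 of 1863 genes called, 11.2%). The 4 genes with values from a list of 9 daughter cell separation genes were negative on every array measured, as were 45.9% of the 1899 genes. As deposited, 0 of these 4 passed, SCW11 included. The other 3 averaged -1.49 ± 1.62 (EGT2), -0.58 ± 0.40 (ASH1) and -0.31 ± 0.43 (DSE2), with n = 2 arrays each. EGT2 was measured on arrays 1 and 4, at -0.35 and -2.63, and ASH1 and DSE2 on arrays 1 and 2. On array 2 DSE2 was only just negative, at -0.0043. That value lies above the array's median of -0.22, so with centring DSE2 is positive there and the 4 genes no longer share one side.

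EXG2, a second exo-glucanase gene, was positive on both arrays, at 0.95 and 0.38. The measured genes of the SUN family of wall proteins lay on both sides, and its member NCA3 had no value. SIM1 averaged 0.56 ± 0.04 and UTH1 0.56 ± 0.07, while SUN4 averaged -0.60 ± 0.06 (n = 2 arrays each). These 3 genes had small gaps between arrays, and none passed (limma adjusted p = 0.20, 0.20 and 0.19). DCW1, which encodes a mannosidase-like wall protein, averaged 0.30 ± 0.04 (n = 2 arrays). KRE6, needed for beta-1,6-glucan, had 0.50 on array 1 and -0.15 on array 2. TOS1, the only one of the 8 measured on all arrays, was near 0 at -0.18 ± 0.02 (n = 3 arrays).

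**Figure D3:**
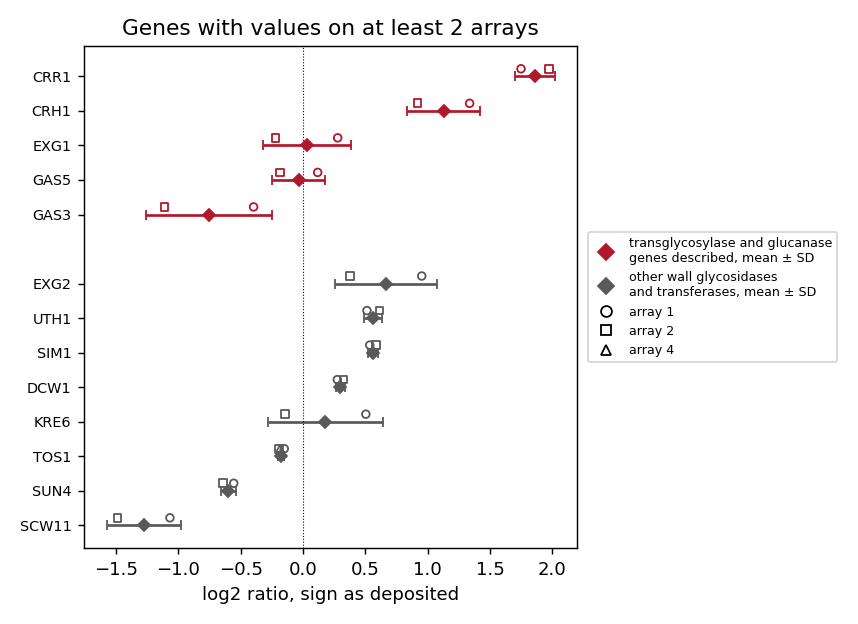
Log2 ratio (horizontal axis, sign as deposited) of the wall enzyme genes with values on at least 2 arrays. Diamonds and bars give the mean ± SD and open symbols single arrays, red for the 5 genes described and grey for the 8 other glycosidase and transferase genes. CRR1 at 1.86 and CRH1 at 1.13 are above all of the other 8, of which EXG2 at 0.66 is highest and SCW11 at -1.28 lowest.

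The spore wall setting of CRR1 could not be followed through other genes. Of 10 genes known for spore wall assembly, 9 had no value. The remaining one, GAS2, a GAS gene of sporulation, had -0.32 on array 1 alone. On the side of synthesis, FKS1, FKS3 and SMI1 had no value. GSC2, the gene of the alternative glucan synthase subunit, had 0.47, 0.43 and 0.16 on arrays 1, 2 and 4 and averaged 0.35 ± 0.17 (SD, n = 3 arrays). RHO1, the regulatory GTPase of the synthase, had 0.48, 0.04 and 0.11 on the same arrays. Neither passed in the test over both culture pairings, which called 0 of 585 genes (0%), 67 of them at an unadjusted limma p under 0.05. Both genes were positive on every array, at sizes below those of CRH1 and CRR1.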

How the data were processed

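Total RNA of caspofungin-treated and untreated cells was compared on 3 two-colour arrays. The authors deposited 1 log ratio per row and array, read here as log2. Not given in the sources used here are the base, centring, direction, spot filter, scanner and normalization. Signal intensities were not used. Locus tags named 5654 of the 6209 rows through RefSeq's R64 gene table and synonyms named 57 more, while 498 kept their own name. Rows of one gene were averaged. Protein and promoter sequences were not used.

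Ratios were tested against 0 with limma 3.58.1 (lmFit, eBayes; R 4.3.3), with Benjamini-Hochberg adjustment over all genes tested and a threshold of 0.05. One fit took the 585 genes on all 3 arrays, averaged array 1 with array 2 or with array 4, and kept the larger p. The other took the 1899 genes on at least 2 arrays, each array a separate replicate, with 5.62 prior degrees of freedom. Scripts were tested on simulated data. Alternatives were centring, scaling, robust moderation, a dye term, other pairings, leaving out each array and, added after the data were seen, turning array 1 in sign. The genes and lists were chosen with earlier results of these data known. All 10 genes are named, and of the other lists each gene with at least 2 values.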

Additional observations from a re-analysis of the deposited data

How the results depend on the processing

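With few arrays these values have limited precision, and spot brightness is unknown. Of 1899 genes on at least 2 arrays, 48 passed. The count was 108 with each array centred and scaled, 2 with a dye term (585 genes could be tested), 0 with array 1 averaged with array 2 (621 genes), 0 with array 1 turned in sign, and 0 to 209 with 1 array left out: 17 without array 1, 0 without array 2 and 209 without array 4. As deposited, centred, centred and scaled, with robust moderation and without array 4, CRR1 passed (limma adjusted p from 3.39e-05 to 0.014), while that of CRH1 ranged from 0.0050 to 0.079. With a dye term, with arrays 1 and 2 averaged, or without array 1 or 2, none of the 5 genes with 2 values (CRH1, CRR1, GAS3, GAS5 and EXG1) could be tested, because each then has 1 value or no residual degree of freedom. The count over genes on all 3 arrays was 0, and 2 with a dye term or with 3 separate replicates. It was 0 to 38 with 1 array left out (17 without array 1, 38 without array 4). With 1 array left out, the remaining arrays were fitted as separate replicates and not by the culture pairings. These counts therefore differ from the main one in the test as well as in the arrays. Where the remaining arrays share a culture, the p-values behind them are too small.

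The mean of CRR1 was 2.07 with centring and 2.28 with centring and scaling, that of CRH1 1.51 and that of GAS5 0.22 with centring and scaling. With array 1 turned in sign, a setting added after the data were seen, CRR1 averaged 0.11 and CRH1 -0.21. Of the 5 genes, 5 had one sign on both arrays with centring, against 3 as deposited, and 1 at 2-fold. Scaling after centring cannot change a sign, so that setting gives the same count and is no separate check. Leaving out array 1 or 2 leaves single values, for which a shared side has no meaning. No member with a row had a value on all 3 arrays, so no median over such members was possible. No paired analysis was possible because each array already holds treated and untreated RNA, and the labels give 1 group.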
